A study of Homo sapiens with 9 samples.

Results

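HMGA2, its paralog HMGA1, the RNA-binding protein gene LIN28B and the 3 IGF2BP genes make up the set called oncofetal here. These genes are on in the embryo and in many tumours, and most of them, but not all, are low in most adult tissues. The 6 genes were taken by name from the 58735 genes counted in every library, and all 6 were found and had enough reads to be tested. The set was chosen by its CPM and fold changes in these same 9 libraries, seen earlier in all 3 comparisons, so its own values, intervals and counts of calls below are a description, and nothing is concluded from them.

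The libraries came from HEK293T, a human embryonic kidney cell line. All 9, the controls included, carry the same genotype: PRPS1 fused to HA and dTAG, and PRPSAP1 fused to V5 and BromoTag. PRPS1 is a phosphoribosyl pyrophosphate (PRPP) synthetase, which makes the sugar donor for nucleotide synthesis, and PRPSAP1 is its associated, non-catalytic partner. In the first group 3 libraries came from cells given dTAG47, a degrader that brings the dTAG-fused PRPS1 to the ubiquitin ligase adaptor cereblon. In the second, 3 came from cells given AGB1, which brings the BromoTag-fused PRPSAP1 to the VHL ligase. The third group is 3 libraries from DMSO-treated cells, the solvent control. Each compound was used at 500 nM for 24 h. The series asked how transcripts respond to loss of either protein. The groups hold neither cells without tags nor an inactive compound, so the loss of the protein and other effects of its compound cannot be told apart.

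LIN28B binds the precursors of the let-7 microRNAs and blocks their maturation. The mature let-7 microRNAs pair through their seed with sites in the 3′ untranslated region (3′ UTR) of target messages and lower them. HMGA2 is a classic let-7 target, and LIN28B, IGF2BP1, IGF2BP2 and IGF2BP3 are let-7 targets as well. HMGA1 and HMGA2 are small AT-hook proteins that bend AT-rich DNA and shape chromatin. IGF2BP1, IGF2BP2 and IGF2BP3 bind messages, many of them carrying N6-methyladenosine, and protect them from decay.

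The let-7 family in RefSeq (GRCh38.p14) has 9 mature names from 12 loci, and all 9 share 1 seed, GAGGUAG. They are shown because this seed is what links HMGA2 to LIN28B; capitals mark the seed, bases 2 to 8.
hsa-let-7a-5p: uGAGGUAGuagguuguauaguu
hsa-let-7b-5p: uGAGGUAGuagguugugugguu
hsa-let-7c-5p: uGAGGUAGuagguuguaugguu
hsa-let-7d-5p: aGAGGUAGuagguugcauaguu
hsa-let-7e-5p: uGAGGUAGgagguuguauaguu
hsa-let-7f-5p: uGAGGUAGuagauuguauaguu
hsa-let-7g-5p: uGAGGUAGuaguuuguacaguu
hsa-let-7i-5p: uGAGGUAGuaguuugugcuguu
hsa-miR-98-5p: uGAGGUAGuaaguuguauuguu

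Matches to the seed were searched on the sense strand of the 3′ UTR of each gene's principal GENCODE 29 transcript. A match to CTACCTCA was called an 8mer, one to CTACCTC without the final A a 7mer-m8, and one to TACCTCA without the leading C a 7mer-A1, so that no match is counted under more than 1 type. HMGA2 held 7 matches in 3003 bases. All 7 are shown, 5′ to 3′ with the match in capitals, in order from the stop codon.
HMGA2 8mer, chr12:65963299-65963320, plus strand: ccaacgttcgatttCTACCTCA
HMGA2 7mer-A1, chr12:65964384-65964405, plus strand: gacctgaataccactTACCTCA
HMGA2 7mer-m8, chr12:65964534-65964555, plus strand: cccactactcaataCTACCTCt
HMGA2 7mer-A1, chr12:65964896-65964917, plus strand: taccctccaagtctgTACCTCA
HMGA2 7mer-m8, chr12:65964946-65964967, plus strand: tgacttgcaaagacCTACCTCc
HMGA2 7mer-m8, chr12:65965799-65965820, plus strand: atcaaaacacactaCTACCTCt
HMGA2 7mer-A1, chr12:65965818-65965839, plus strand: tcttaagtcccagtaTACCTCA
The first lies 21 bases past the stop codon and the last begins 2541 bases past it. Of the 13835 tested genes with a 3′ UTR in this search, 16.0% held any match and 3.76% an 8mer. Among 1721 3′ UTRs of similar length, 26.3% held a match, and none other than HMGA2 itself held as many as 7. TRIM71, a let-7 target that encodes a stem-cell ubiquitin ligase and RNA-binding protein, held 8, the highest number among the tested genes, and HMGA2 came next. These are matches of letters, not measured binding.

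The other 5 genes held fewer matches per length. LIN28B had 5 in 4549 bases, of which 2 were 8mers. IGF2BP1 had 5 in 6206 bases, of which 3 were 8mers. IGF2BP2 had 2 in 1792 bases, IGF2BP3 had 1 in 2153 bases and HMGA1 had 1 in 1347 bases. An 8mer was therefore present in each gene other than HMGA1, whose only match was a 7mer-m8. HMGA2 had 2.33 matches per kilobase, against 1.12 in IGF2BP2, 1.10 in LIN28B, 0.806 in IGF2BP1, 0.742 in HMGA1 and 0.464 in IGF2BP3. Below is the match nearest the stop codon in each of these 5, with the same capitals.
LIN28B 8mer, chr6:105078813-105078834, plus strand: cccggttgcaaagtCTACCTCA
IGF2BP1 8mer, chr17:49051062-49051083, plus strand: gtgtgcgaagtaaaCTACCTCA
IGF2BP2 8mer, chr3:185644220-185644241, minus strand: acacacagaagaagCTACCTCA
IGF2BP3 8mer, chr7:23311795-23311816, minus strand: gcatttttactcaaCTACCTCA
HMGA1 7mer-m8, chr6:34245830-34245851, plus strand: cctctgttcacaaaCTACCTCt

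**Figure D1:**
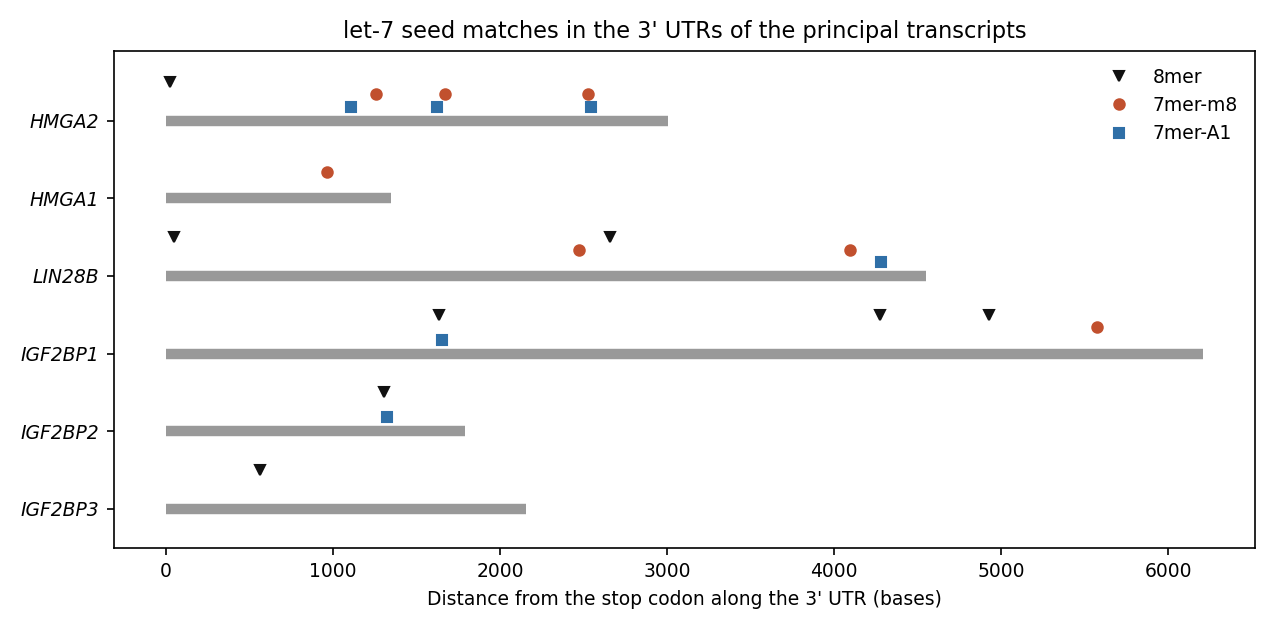
Positions of let-7 seed matches along the 3′ UTR of the principal transcript of each gene, in bases from the stop codon; grey bars give the length of the 3′ UTR and symbols the type of match, set at different heights so that close matches stay visible. HMGA2 carries 7 matches in 3003 bases, and HMGA1 and IGF2BP3 carry 1 each.

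HMGA2 (ENSG00000149948) spans chr12:65824131-65966295 on the plus strand of GRCh38. It has 7 annotated coding transcripts of different ends. The principal one, of 4473 bases, holds 8 matches over its whole length, 1 of them outside the 3′ UTR, while 5 others hold 1 match and 1 holds none. The counts are per gene, so reads from these forms cannot be told apart. HMGA1 (ENSG00000137309) lies at chr6:34236873-34246231 and LIN28B (ENSG00000187772) at chr6:104936616-105083332, both on the plus strand. IGF2BP1 (ENSG00000159217) is at chr17:48997412-49055650 on the plus strand. IGF2BP2 (ENSG00000073792) is at chr3:185643739-185825056 and IGF2BP3 (ENSG00000136231) at chr7:23310209-23470467, both on the minus strand.

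The libraries held between 27964128 and 44803380 counted reads, and 18319 genes were tested. In the whole series 11 genes passed the edgeR threshold in dTAG47 against DMSO, 19 in AGB1 against DMSO and 0 in dTAG47 against AGB1, where 736 had an unadjusted p under 0.05 and DESeq2 also called 0. PRPS1 averaged 110 CPM (reads scaled to library size) in dTAG47, 109 CPM in AGB1 and 103 CPM in DMSO, and PRPSAP1 averaged 29.6 CPM in dTAG47, 29.1 CPM in AGB1 and 29.4 CPM in DMSO. Degraders remove protein and not message, and these levels are therefore no check of depletion. Of the markers for the labelled epithelial type, the keratin genes KRT8 and KRT18 were present, CDH1 and EPCAM were low (at most 9.02 and 3.21 CPM), and KRT19 was too low to test. CDH2 and VIM, listed with them but typical of mesenchymal cells, reached 80.1 and 380 CPM, so the defining epithelial markers bear out the label only in part. The 3 neurofilament genes NEFL, NEFM and INA, a neuronal list, summed to 314 to 351 CPM in dTAG47, 353 to 368 CPM in AGB1 and 305 to 329 CPM in DMSO. Fibroblast, blood and kidney markers summed to at most 32.4, 5.52 and 23.5 CPM in any library. The lean of a library towards GC-rich or GC-poor genes also varied: its rank correlation with transcript GC content over 11435 genes was 0.623 in dTAG47 library 1 and −0.378 in DMSO library 1, the extremes of the 9. The labels do not say that the libraries of a group come from separate cultures, so a p-value reflects the spread among the 9 libraries alone, and that spread may be technical.

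HMGA2 was the gene of the set that stood apart from DMSO under both compounds. It measured 59.1, 70.4 and 64.2 CPM in dTAG47 libraries 1 to 3, 62.4, 65.1 and 67.0 CPM in AGB1, and 78.7, 80.2 and 76.2 CPM in DMSO. The 6 compound-treated libraries all lay below the 3 DMSO libraries, and the dTAG47 and AGB1 libraries overlapped. The means were 64.6 ± 5.64 CPM in dTAG47, 64.8 ± 2.32 CPM in AGB1 and 78.4 ± 2.03 CPM in DMSO (SD, n = 3 each). The log2 fold change was −0.28 ± 0.07 (SE; 95% interval −0.43 to −0.13) in dTAG47 against DMSO, a level 17.5% lower. In AGB1 against DMSO it was −0.27 ± 0.07 (−0.42 to −0.12), a level 17.3% lower. Between dTAG47 and AGB1 the level differed by −0.304%, with a 95% interval of −10.2% to 10.7%. Both comparisons with DMSO use the same 3 control libraries. The dTAG47 library with the lowest HMGA2 level was also the one with the GC correlation of 0.623, and without it the log2 fold change in dTAG47 was −0.22. With the GC trend removed from every library it was −0.23 in both comparisons. The GC content used was that of the longest annotated transcript, 38.8% for HMGA2, against 45.3% in its principal transcript. The removal was not repeated with the latter. The neurofilament sums stood apart from DMSO in AGB1 and overlapped with DMSO in dTAG47; their part in the HMGA2 values was not tested. In bulk RNA a change in the mix of cells and a change in RNA per cell cannot be told apart.

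None of the 6 genes passed the edgeR threshold (adjusted p under 0.05 over all tested genes) in any of the 3 comparisons; limma-voom called 0 as well, and DESeq2 called 1, HMGA2 in AGB1 against DMSO. The shares of all tested genes past it were 0.06% in dTAG47 against DMSO, 0.104% in AGB1 against DMSO and 0% in dTAG47 against AGB1. An unadjusted p under 0.05 was found for 1 of the 6, HMGA2, in dTAG47 against DMSO (7.28% of all tested genes), for 1, HMGA2, in AGB1 against DMSO (7.76%) and for 0 in dTAG47 against AGB1 (4.02%). The choice of the genes used these comparisons, so the counts are not evidence of a change. The libraries did not overlap for 1 of the 6 genes in each comparison: HMGA2, lower, in both comparisons with DMSO, where 5.82% and 6.75% of tested genes were lower without overlap, and IGF2BP2, higher, in dTAG47 against AGB1, where 5.35% were. The median log2 fold change of the 6 genes was −0.048 in dTAG47 and −0.052 in AGB1 against DMSO, against −0.00097 and −0.00092 over all tested genes. In dTAG47 against AGB1 it was −0.021, against 5.5e-05 over all genes.

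**Figure D2:**
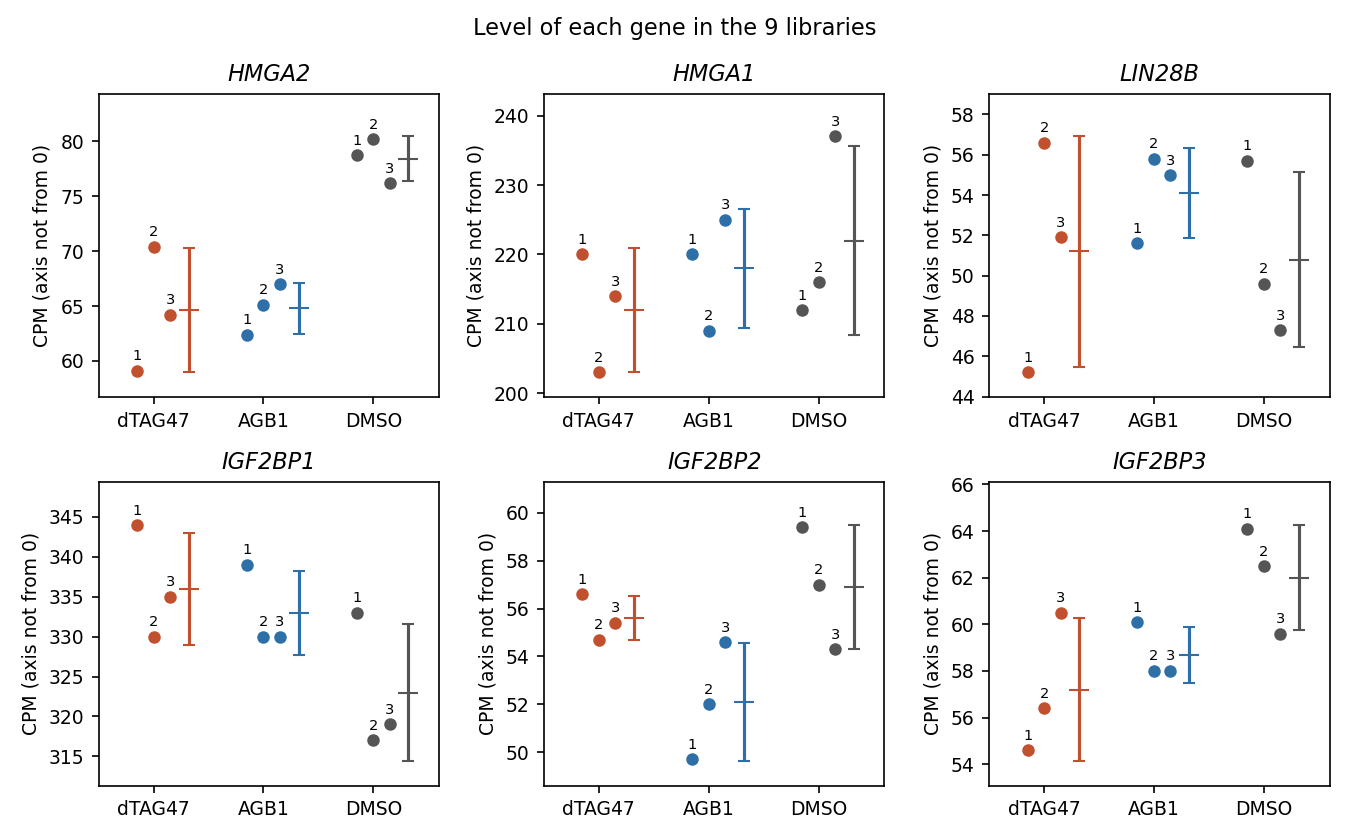
CPM of each gene in the 9 libraries by group; points are libraries with their replicate number, and bars give the mean and SD of 3. HMGA2 lies at 59.1 to 70.4 CPM in dTAG47, 62.4 to 67.0 CPM in AGB1 and 76.2 to 80.2 CPM in DMSO, while LIN28B overlaps across all groups; the axes do not start at 0.

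HMGA1, the other AT-hook gene, measured 220, 203 and 214 CPM in dTAG47, 220, 209 and 225 CPM in AGB1, and 212, 216 and 237 CPM in DMSO. The groups overlapped, and the highest value was that of DMSO library 3. Its log2 fold change was −0.06 ± 0.06 in dTAG47 (95% interval −0.18 to 0.05) and −0.02 ± 0.06 in AGB1 (−0.14 to 0.09) against DMSO. A difference of 11.7% downwards in dTAG47 is thus still inside the interval. The ratio of HMGA2 to HMGA1 counts was 0.269, 0.347 and 0.300 in dTAG47, 0.284, 0.312 and 0.297 in AGB1, and 0.372, 0.371 and 0.321 in DMSO. For this ratio the AGB1 libraries lay below the DMSO libraries, and the dTAG47 libraries overlapped with them.

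LIN28B, which keeps let-7 from maturing, measured 45.2, 56.6 and 51.9 CPM in dTAG47, 51.6, 55.8 and 55.0 CPM in AGB1, and 55.7, 49.6 and 47.3 CPM in DMSO. The 3 groups overlapped, with the widest spread in dTAG47, where the coefficient of variation was 11.1%. The log2 fold change was 0.01 ± 0.09 in dTAG47 (95% interval −0.16 to 0.19) and 0.09 ± 0.09 in AGB1 (−0.09 to 0.27) against DMSO. The sign in dTAG47 was not stable: it ranged from −0.07 to 0.09 over the 17 other settings. LIN28A, the paralog that acts on let-7 in the cytoplasm, averaged 0.0713 CPM in dTAG47 and 0.0279 CPM in DMSO and had no read in AGB1, too low to test.

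The ratio of HMGA2 to LIN28B counts within a library does not depend on scaling between libraries. HMGA2 reads per LIN28B read were 1.31, 1.24 and 1.24 in dTAG47, 1.21, 1.17 and 1.22 in AGB1, and 1.41, 1.62 and 1.61 in DMSO. All 6 compound-treated libraries lay below all 3 DMSO libraries. HMGA2 alone already lay apart in this way, and the set was chosen with its values known, so the ratio is no separate support. How many other pairs of genes separate like this was not computed. Among the dTAG47 libraries, both genes were lowest in library 1 and highest in library 2. Over the 9 libraries the Pearson correlation of their log2 CPM was 0.154, and after each group's mean was removed it was 0.826; the libraries share depth and GC lean, so this is a description only.

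IGF2BP1, the most abundant of the message-stabilising proteins by reads, measured 344, 330 and 335 CPM in dTAG47, 339, 330 and 330 CPM in AGB1, and 333, 317 and 319 CPM in DMSO. DMSO library 1 reached into the range of both treated groups. Its log2 fold change was 0.06 ± 0.05 in dTAG47 (95% interval −0.04 to 0.16) and 0.04 ± 0.05 in AGB1 (−0.06 to 0.14). IGF2BP1 and HMGA2 had the most negative correlation of any pair in the set over the 9 libraries, −0.817, and −0.633 with group means removed; the pair HMGA1 and LIN28B had −0.637 and −0.764. HMGA2 reads per IGF2BP1 read were 0.172, 0.213 and 0.191 in dTAG47, 0.184, 0.197 and 0.203 in AGB1, and 0.236, 0.253 and 0.238 in DMSO, with no overlap between treated and DMSO libraries. This ratio too rests on the HMGA2 values and is no separate support. The longest transcripts of HMGA2 and IGF2BP1 have 38.8% and 49.6% GC, so the GC lean of a library may not cancel in it.

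IGF2BP2, known also for its role in metabolic tissue, measured 56.6, 54.7 and 55.4 CPM in dTAG47, 49.7, 52.0 and 54.6 CPM in AGB1, and 59.4, 57.0 and 54.3 CPM in DMSO. The dTAG47 and AGB1 libraries were apart by the narrow gap between 54.7 and 54.6 CPM, and both groups overlapped with DMSO. Its log2 fold change was −0.03 ± 0.07 in dTAG47 and −0.13 ± 0.08 in AGB1 against DMSO (95% intervals −0.19 to 0.12 and −0.28 to 0.03). In dTAG47 against AGB1 it was 0.09 ± 0.08 (−0.06 to 0.25).

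IGF2BP3, a marker used in tumour pathology, measured 54.6, 56.4 and 60.5 CPM in dTAG47, 60.1, 58.0 and 58.0 CPM in AGB1, and 64.1, 62.5 and 59.6 CPM in DMSO. The third DMSO library lay within the range of both treated groups. The log2 fold change was −0.12 ± 0.07 in dTAG47 and −0.08 ± 0.07 in AGB1 (95% intervals −0.27 to 0.03 and −0.23 to 0.07). IGF2BP3 overlaps MALSU1, a mitochondrial ribosome assembly gene on the opposite strand, which averaged 34.2 CPM in dTAG47, 33.3 CPM in AGB1 and 35.5 CPM in DMSO; the strand setting of the counting is not known, so their reads may be mixed where they overlap. Within the IGF2BP family, per kilobase of the gene length given in the files, IGF2BP1 made up 66.7% ± 0.561 in dTAG47, 67.1% ± 0.790 in AGB1 and 64.8% ± 0.662 in DMSO (SD, n = 3 each). The share depends on the length used: by principal transcript it was 58.8% in dTAG47, 59.0% in AGB1 and 56.5% in DMSO.

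**Figure D3:**
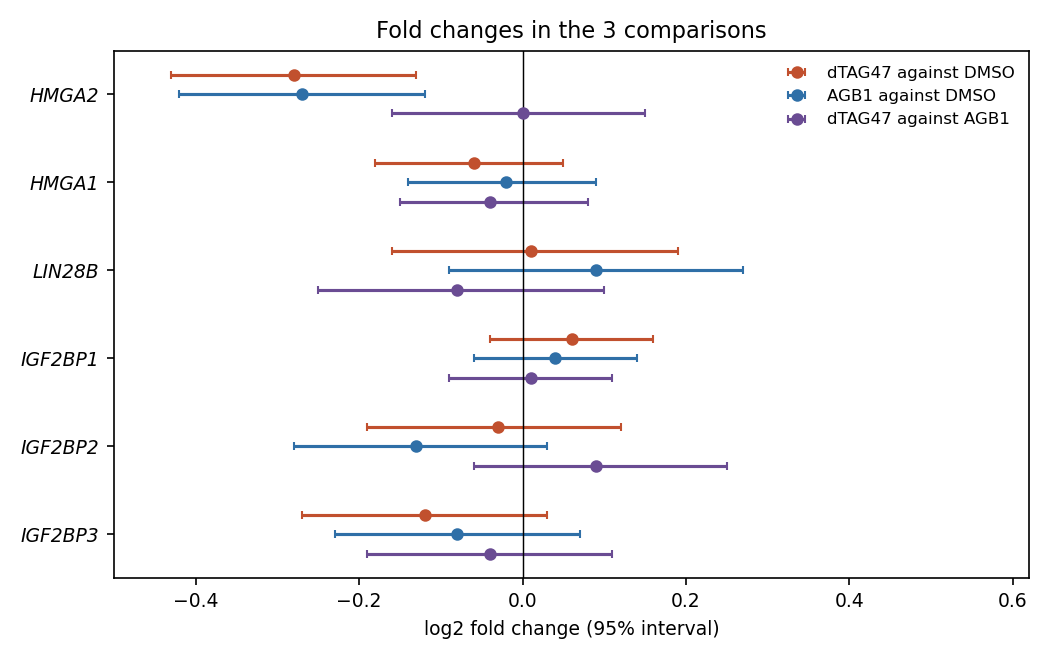
Fitted log2 fold changes with 95% intervals for each gene in dTAG47 against DMSO, AGB1 against DMSO and dTAG47 against AGB1. The HMGA2 values are −0.28 in dTAG47 and −0.27 in AGB1 against DMSO, and the other genes lie between −0.13 and 0.09; the genes were chosen on these values, so the intervals show spread and are no test.

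Levels can be compared between genes only per length. In DMSO, per kilobase of the length given in the files, HMGA1 stood at 95.2 CPM per kilobase, above 98.0% of tested genes. IGF2BP1 followed at 35.5, IGF2BP2 at 12, LIN28B at 8.47, IGF2BP3 at 7.29 and HMGA2 at 5.09, all in CPM per kilobase. Even the lowest of these, HMGA2, exceeded 58.9% of tested genes. The order of the lower 4 depends on the length used. The files give HMGA2 15403 bases, the union of exons of forms with different ends, while its principal transcript has 4473. By principal transcript HMGA2 came after HMGA1 and IGF2BP1, at 17.5 CPM per kilobase, with IGF2BP2 at 15.4, IGF2BP3 at 14.6 and LIN28B at 9.23. By longest transcript it stood at 9.68 ± 0.251, next to LIN28B at 9.23 CPM per kilobase, whose SDs overlapped. HMGA1 and IGF2BP1 were first and second by all 3 lengths, at 115 and 39.1 CPM per kilobase by principal transcript.

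**Figure D4:**
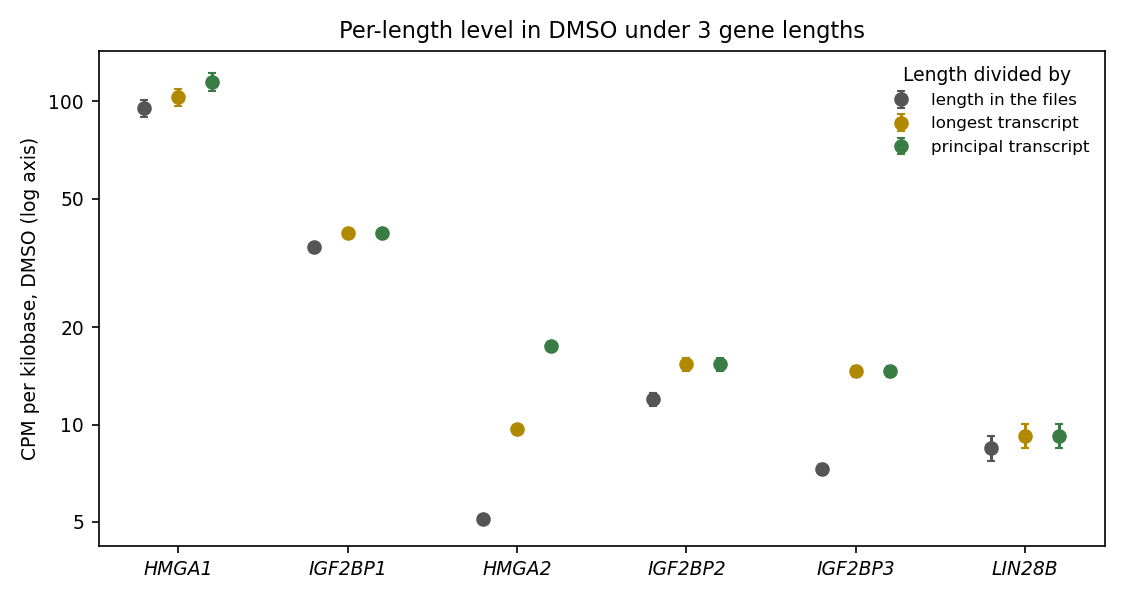
Mean CPM per kilobase in DMSO (log axis, SD of 3 libraries) for each gene under 3 definitions of gene length. HMGA2 moves between 5.09 and 17.5 CPM per kilobase, while HMGA1 and IGF2BP1 keep the first and second place.

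Sequence shared with other genes was small. No 75-base word of the principal transcripts of HMGA2 or IGF2BP1 occurred in a transcript of another gene. The share was 1.79% for HMGA1, whose processed pseudogene HMGA1P2 was the closest copy, and at most 3.47%, in IGF2BP3. RPSAP52, a transcribed pseudogene antisense to the start of HMGA2, reached at most 0.515 CPM in a library, against at least 59.1 CPM for HMGA2. The nearest protein-coding neighbours of HMGA2 are MSRB3, a methionine sulfoxide reductase gene, and LLPH, which is linked to ribosome assembly. MSRB3 had log2 fold changes of 0.06 ± 0.11 in dTAG47 and −0.01 ± 0.12 in AGB1. LLPH had −0.01 ± 0.09 in dTAG47 and 0.10 ± 0.09 in AGB1.

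The genes whose log2 CPM followed HMGA2 most closely over the 9 libraries, among 10833 protein-coding genes at 5 CPM or more, were BMI1 (Pearson r 0.981), SIX4 (0.979) and HSP90B1 (0.971). BMI1, a Polycomb group gene, measured 59.5, 69.0 and 66.4 CPM in dTAG47, 63.2, 65.0 and 65.4 CPM in AGB1, and 76.2, 81.0 and 74.8 CPM in DMSO. Its log2 fold changes were −0.25 in dTAG47 and −0.26 in AGB1; as it was picked for its likeness to HMGA2 over the same libraries, group differences included, its lower treated values follow from the choice. With group means removed its correlation with HMGA2 was 0.914. SIX4, a homeobox factor gene, had −0.15 in dTAG47 and −0.14 in AGB1, and HSP90B1, an endoplasmic reticulum chaperone gene that overlaps C12orf73, had −0.13 in both. None of the 3 passed the edgeR threshold. For LIN28B the closest were BRWD1 (0.971), MORC4 (0.965) and LRRC58 (0.942), and for HMGA1 they were RNF152 (0.956), FJX1 (0.947) and NDUFA2 (0.925). For IGF2BP1 they were KCTD10 (0.956), TMEM109 (0.942) and PEX26 (0.933). For IGF2BP2 they were CTTNBP2 (0.960), GJA3 (0.947) and PCGF3 (0.936), and for IGF2BP3 AMD1 (0.962), PHF6 (0.941) and WWC2 (0.941). No gene was among the closest 3 of more than 1 of the 6.

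Of 22 tested genes of LIN28 and let-7 processing, 0 passed the edgeR threshold in either comparison with DMSO; 2 in dTAG47 and 1 in AGB1 had an unadjusted p under 0.05. For this list and the others below, DESeq2 and limma-voom also called 0 genes unless a call is named. The shares of all tested genes at an unadjusted p under 0.05, to be set beside each such count, were 7.28% in dTAG47 and 7.76% in AGB1. The median log2 fold change of the 22 genes was 0.013 in dTAG47 and 0.030 in AGB1. DROSHA and DICER1, the nucleases that cut microRNA precursors, had 0.01 ± 0.06 and 0.02 ± 0.08 in dTAG47 and −0.04 ± 0.06 and 0.07 ± 0.08 in AGB1. TUT4, which adds uridines to the let-7 precursor held by LIN28, had −0.12 ± 0.07 in dTAG47 and −0.01 ± 0.07 in AGB1. DIS3L2, the exonuclease that then degrades it, had 0.02 ± 0.10 in dTAG47 and 0.10 ± 0.10 in AGB1. TNRC6B, a scaffold of the silencing complex, had the smallest p in both comparisons with DMSO, with −0.19 ± 0.07 in dTAG47 and −0.15 ± 0.07 in AGB1. DROSHA, DICER1, TUT4 and DIS3L2 were named for their roles after their values were seen.

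Mature let-7 was not measured, since libraries of polyadenylated RNA do not hold it. At the 12 let-7 loci 7 had no read in any library, and the highest count was 14. Of the host transcripts 4 could be tested and 0 passed the edgeR threshold in either comparison with DMSO, with 0 at an unadjusted p under 0.05. MIRLET7BHG, host of let-7a and let-7b, measured 0.711, 0.536 and 0.513 CPM in dTAG47, 0.840, 1.04 and 0.421 CPM in AGB1, and 0.424, 0.218 and 0.375 CPM in DMSO. The dTAG47 and AGB1 libraries lay above the DMSO libraries except that AGB1 library 3 was just below DMSO library 1. No value was above 1.04 CPM, so few reads set this order. How many of all tested genes lay above DMSO without overlap was not computed. The log2 fold changes, 0.78 ± 0.62 in dTAG47 and 1.16 ± 0.62 in AGB1, had wide errors at this depth. HUWE1, whose introns hold let-7f and miR-98, had −0.01 ± 0.06 in dTAG47 and −0.03 ± 0.06 in AGB1.

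Of 34 tested genes known as other let-7 targets, 17 were positive and 17 negative in each comparison with DMSO, with medians of −0.0028 in dTAG47 and −0.0013 in AGB1. The seed search covered the 3′ UTRs of 33 of them and found a match in 30. MYC was not among those 33. Of the 34, 0 passed the edgeR threshold in dTAG47 and 7 had an unadjusted p under 0.05. In AGB1 1 passed, MYC, which rose, and 4 had an unadjusted p under 0.05 (all tested genes, 7.28% in dTAG47 and 7.76% in AGB1). MYC, a growth-promoting transcription factor gene and also a client of IGF2BP1, measured 175, 156 and 163 CPM in dTAG47, 188, 177 and 189 CPM in AGB1, and 142, 156 and 154 CPM in DMSO. All 3 AGB1 libraries were above all 3 DMSO libraries, and the dTAG47 libraries reached down to the highest DMSO value. The share of all tested genes higher than DMSO without overlap was not computed, so this separation is a description only. The log2 fold change was 0.29 ± 0.06 in AGB1 (edgeR quasi-likelihood, Benjamini-Hochberg adjusted p = 0.0409) and 0.13 ± 0.06 in dTAG47 (adjusted p = 0.676). The difference between dTAG47 and AGB1, −0.16 ± 0.06, did not pass (edgeR adjusted p = 0.999). The AGB1 call was lost without any one of 6 libraries: AGB1 1, 2 or 3, DMSO 1 or 2, or dTAG47 3, with edgeR adjusted p between 0.0624 and 0.294, while the log2 fold change stayed between 0.25 and 0.32. It was also lost with the replicate number as a block (edgeR adjusted p = 0.0785) and with library sizes alone (0.0545).

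PBX3, a homeobox cofactor gene with 2 seed matches, measured 21.2, 25.6 and 20.7 CPM in dTAG47, 22.4, 21.6 and 22.7 CPM in AGB1, and 30.0, 29.5 and 29.6 CPM in DMSO. It was lower in all 6 treated libraries than in the 3 DMSO libraries. Of all tested genes, 5.82% in dTAG47 and 6.75% in AGB1 were lower than DMSO without overlap. PBX3 was named because it had the smallest p of the let-7 targets in dTAG47 against DMSO, so these values follow in part from the choice. Its log2 fold changes of −0.40 ± 0.10 in dTAG47 and −0.42 ± 0.10 in AGB1 did not pass the edgeR threshold (adjusted p = 0.182 in dTAG47 and 0.13 in AGB1), while DESeq2 called it in both (adjusted p = 0.046 and 0.019). Over all genes, medians by number of seed matches differed little. The 11625 genes without a match had medians of 0.005 in dTAG47 and 0.002 in AGB1 against DMSO. The 1820 with 1 match had −0.005 in AGB1, and 49.8% of them were positive in dTAG47. The 296 with 2 had −0.013 in dTAG47 and −0.011 in AGB1, and the 88 with 3 or more, the 6 genes themselves left out, had 0.012 in dTAG47 and −0.008 in AGB1. Their 3′ UTRs differ in length, with medians of 892, 2540, 4320 and 7090 bases from no match to 3 or more.

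Genes reported downstream of HMGA2 or HMGA1, such as cyclins, mesenchymal factors and cell cycle inhibitors, made up a further list. Of 22 tested, 0 passed the edgeR threshold in either comparison with DMSO. An unadjusted p under 0.05 was found for 3 in dTAG47 and 4 in AGB1 (all tested genes, 7.28% and 7.76%). The medians were −0.0075 in dTAG47 and 0.013 in AGB1. LEF1, a Wnt pathway transcription factor gene, measured 21.4, 21.7 and 20.1 CPM in dTAG47, 19.5, 18.8 and 18.7 CPM in AGB1, and 24.4, 26.6 and 23.7 CPM in DMSO. The groups did not overlap with DMSO, and the log2 fold changes were −0.24 ± 0.10 in dTAG47 and −0.39 ± 0.10 in AGB1, neither past the edgeR threshold (adjusted p = 0.623 in dTAG47 and 0.198 in AGB1). DESeq2 called LEF1 in AGB1 (adjusted p = 0.0332). LEF1 was named because it had the smallest p of this list in both comparisons with DMSO. Of all tested genes, 5.82% in dTAG47 and 6.75% in AGB1 were lower than DMSO without overlap. VIM, an intermediate filament gene, had −0.03 ± 0.05 in dTAG47 and −0.08 ± 0.05 in AGB1.

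Of 14 other high mobility group genes 0 passed the edgeR threshold in either comparison with DMSO. An unadjusted p under 0.05 was found for 1 in dTAG47 and 2 in AGB1 (all tested genes, 7.28% and 7.76%). The medians were −0.0029 in dTAG47 and 0.029 in AGB1. HMGB1 and HMGN2, which bind DNA and nucleosomes, had −0.05 ± 0.05 and 0.02 ± 0.04 in dTAG47 and −0.01 ± 0.05 and 0.05 ± 0.04 in AGB1. HMGN5, a nucleosome-binding relative, measured 96.8, 121 and 119 CPM in dTAG47, 111, 118 and 105 CPM in AGB1, and 116, 133 and 128 CPM in DMSO. Its groups overlapped, with log2 fold changes of −0.17 ± 0.07 in dTAG47 and −0.18 ± 0.08 in AGB1.

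On the IGF2BP side, 17 tested IGF signalling genes had medians of −0.013 in dTAG47 and −0.024 in AGB1 against DMSO, and 0 passed the edgeR threshold. An unadjusted p under 0.05 was found for 1 in dTAG47 and 3 in AGB1 (all tested genes, 7.28% and 7.76%). IGF2, the growth factor for whose message the IGF2BP genes are named, was nearly off, at 0.392 CPM in dTAG47, 0.400 CPM in AGB1 and 0.319 CPM in DMSO. IRS4, an insulin receptor substrate gene, was the highest of the list, at 956, 914 and 930 CPM in dTAG47, 915, 915 and 869 CPM in AGB1, and 1020, 965 and 934 CPM in DMSO. The AGB1 values of IRS4 lay below all DMSO values, as was so for 6.75% of all tested genes, while the log2 fold change was −0.11 ± 0.04. IGFBP5, a secreted IGF-binding protein gene, measured 23.8, 24.2 and 22.2 CPM in dTAG47, 22, 20 and 23.6 CPM in AGB1, and 32.3, 28.1 and 23.9 CPM in DMSO. DMSO library 3 lay within the dTAG47 range and just above the AGB1 range, and the log2 fold changes were −0.26 ± 0.11 in dTAG47 and −0.36 ± 0.11 in AGB1.

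The 16 partners found in IGF2BP particles had medians of −0.013 in dTAG47 and 0.043 in AGB1 against DMSO, with 0 past the edgeR threshold (2 in dTAG47 and 3 in AGB1 at an unadjusted p under 0.05). In dTAG47 against AGB1 1 of the 16 was positive and 15 were negative, with a median of −0.037, where 50% of all tested genes were positive, and 0 past the edgeR threshold or at an unadjusted p under 0.05. This split was picked out after the values of all lists were seen. In the same comparison 7 of 22 let-7 processing genes, 12 of 34 let-7 targets, 13 of 22 genes downstream of HMGA2 or HMGA1 and 11 of 17 IGF signalling genes were positive. So were 5 of 14 other high mobility group genes, 5 of 13 client messages, 6 of 14 N6-methyladenosine genes, 6 of 11 other oncofetal genes and 1 of 4 let-7 host transcripts. YBX1, an abundant message-binding protein gene, had 0.03 ± 0.05 in dTAG47 and 0.05 ± 0.05 in AGB1. Among 13 client messages MYC in AGB1, given above, was the 1 that passed. An unadjusted p under 0.05 was found for 4 in dTAG47 and 3 in AGB1, against 7.28% and 7.76% of all tested genes. The list was chosen with earlier results of these data known, so these counts are a description only. The medians of the client messages were 0.038 in dTAG47 and 0.026 in AGB1. ACTB, the beta-actin message on which IGF2BP1 was first studied as a zipcode-binding protein in chick cells, had 0.13 ± 0.04 in dTAG47 and 0.09 ± 0.04 in AGB1 and did not pass. Of 14 genes that write, erase or read N6-methyladenosine 0 passed in either comparison with DMSO (0 in dTAG47 and 2 in AGB1 at an unadjusted p under 0.05). Their medians were −0.0074 in dTAG47 and 0.018 in AGB1.

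Of 20 other oncofetal genes, 11 had enough reads to be tested; AFP, DLK1 and H19, fetal liver and imprinted genes, were among the 9 that did not. Of the 11, 9 were negative in dTAG47 and 8 in AGB1 against DMSO, with medians of −0.12 in dTAG47 and −0.13 in AGB1, and 0 passed the edgeR threshold or had an unadjusted p under 0.05. Of all tested genes 49.7% were positive in each of these comparisons, which share the DMSO libraries. Some of the 11 had few reads and wide errors, such as IGF2 and SALL4, with SEs of 0.75 and 0.49 in dTAG47. The split is a description only. SOX4, the most abundant, averaged 108 CPM in dTAG47, 108 CPM in AGB1 and 114 CPM in DMSO, with log2 fold changes of −0.08 ± 0.06 in both. PLAG1, a zinc finger activator that HMGA2 is known to act upstream of, averaged 17.4 CPM in dTAG47, 18.9 CPM in AGB1 and 19.1 CPM in DMSO.

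**Figure D5:**
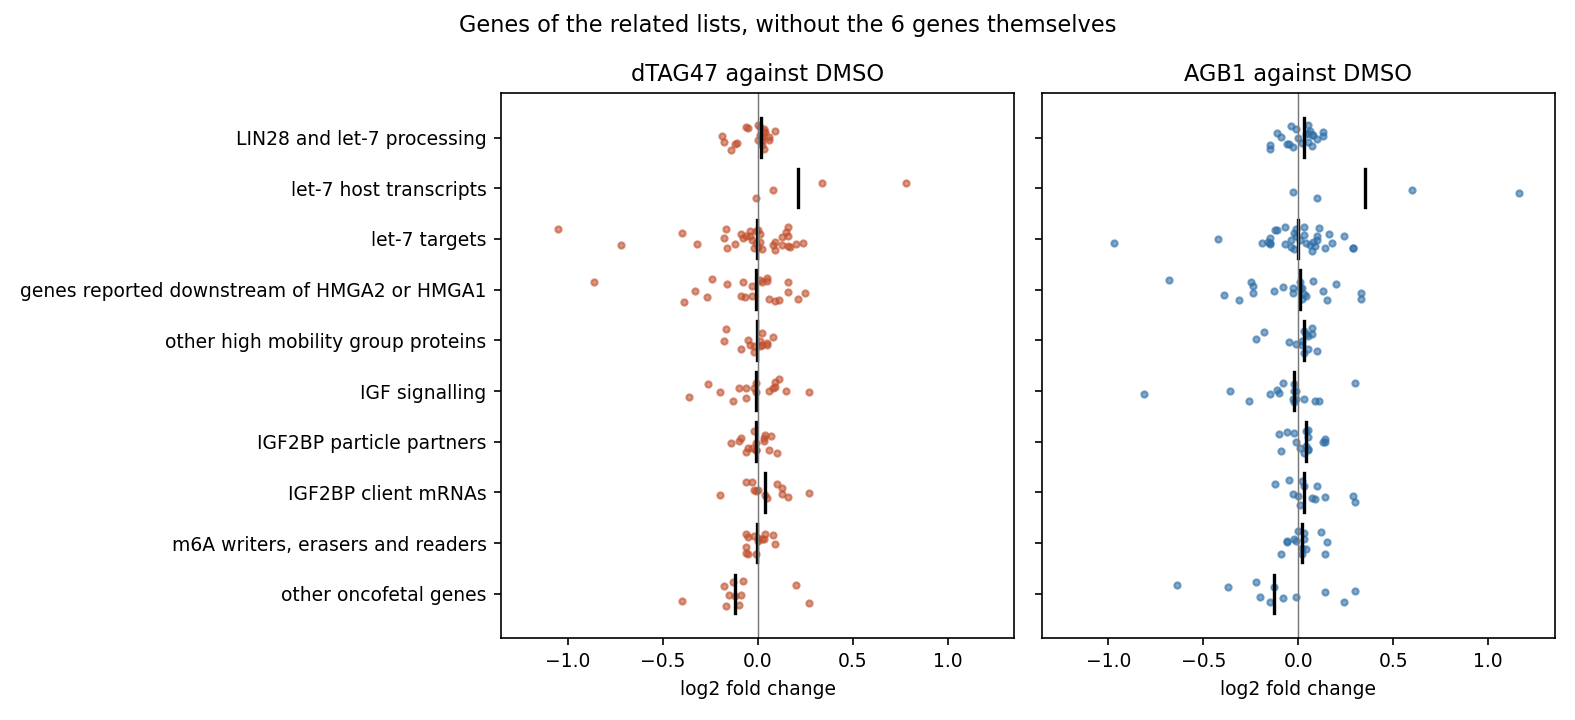
log2 fold changes of the tested genes of each related list, the 6 genes themselves left out, in dTAG47 against DMSO and AGB1 against DMSO; points are genes and black lines medians. The medians lie between −0.13 and 0.043 in both comparisons except for the 4 let-7 host transcripts (0.21 and 0.35), of which MIRLET7BHG and MIR99AHG reach at most 1.04 and 1.43 CPM.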

How the data were processed

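The 9 HEK293T RNA-seq libraries, 3 each for dTAG47, AGB1 and DMSO, were grouped by the labels. Per the labels' protocols messages were selected on poly-T beads and copied with random hexamers. For each library the authors deposited raw counts per gene, whole numbers without normalization. HISAT2, DESeq2 and hg38 are named in the submitters' processing notes; neither versions nor a counting tool and strand mode are stated there (not given in the sources used here). All 58735 gene models match GENCODE 29 (GRCh38), and 25698 genes had no count.

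Counts were fitted with edgeR 4.0.16 (R 4.3.3): filterByExpr left 18319 genes (14043 protein-coding), TMM scaling, 1 quasi-likelihood model over all 9 libraries, glmQLFTest, two-sided, Benjamini-Hochberg over all tested genes, threshold 0.05. The common biological coefficient of variation was 11%. The fit was tried on simulated counts with the same dispersion for every gene and no GC lean. That is a check of the calculation and does not show how the fit performs on these libraries. Levels are CPM on TMM-scaled library sizes. Reads carry no molecular identifiers, so copies of a molecule cannot be told from separate molecules. The counting error of a library taken alone is thus understated, while the fitted errors come from the spread among libraries. Alternatives were DESeq2 1.42.0, voom in limma 3.58.1, other scaling, no filter, only the 2 groups compared, the replicate block, GC trend removal by lowess (span 0.3, offsets), other gene lengths (principal transcript added after seeing the data) and leaving out each library. Plots and searches used Python 3.11.15.

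The 6 genes and all lists were chosen with earlier results of these data known. Genes named are the 6, the PRPP synthetase genes, list genes past the threshold, the 3 highest and the smallest p of each list (a selection is printed), overlapping or neighbouring genes, and the 3 genes with the highest correlation to each of the 6. Genes outside this rule, chosen after their values were seen, are PLAG1 where it is tied to HMGA2, IGF2, TRIM71 and those so marked. MicroRNA sequences are from RefSeq (all 9 let-7 names matched); target sites are from GENCODE 29 transcripts, with the principal transcript taken from APPRIS tags. Similar length means 0.8 to 1.25 times the 3′ UTR's own. MIRLET7A1HG, MIRLET7DHG and MIRLET7IHG were not matched by name.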

Additional observations from a re-analysis of the deposited data

How the results depend on the processing

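The sign of HMGA2 against DMSO was the same under all 17 alternatives in each comparison, with log2 fold changes of −0.35 to −0.22 in dTAG47 and −0.30 to −0.23 in AGB1; DESeq2 placed it past its threshold in AGB1, so that 1 of the 6 genes was called there and 0 in every other alternative. Signs changed under some settings for LIN28B in dTAG47 against DMSO (same in 14 of 17), HMGA1 in AGB1 against DMSO (15 of 17) and, in dTAG47 against AGB1, HMGA2 (14 of 17), LIN28B and IGF2BP1 (16 of 17 each). In the main fit each of these values was smaller than its SE, LIN28B in dTAG47 against AGB1 only slightly so, at −0.08 ± 0.09. The number of genes called over the whole table depended on the tool: 11 in dTAG47 and 19 in AGB1 against DMSO with edgeR, 45 in dTAG47 and 76 in AGB1 with DESeq2, 43 in dTAG47 and 67 in AGB1 with no filter on low counts (13 in dTAG47 against AGB1, where edgeR and DESeq2 called 0), and 21 in dTAG47 and 50 in AGB1 with the GC trend removed. Fitting only the 2 groups gave 4 in dTAG47. Leaving out 1 library gave 2 to 20 in dTAG47 against DMSO, lowest without dTAG47 1 and highest without DMSO 3, also moved by over 1.5 times without dTAG47 3 (6), DMSO 1 (5) or DMSO 2 (3). It gave 6 to 55 in AGB1 against DMSO, lowest without AGB1 3 and highest without DMSO 3, also moved without AGB1 2 (9), DMSO 1 (10) or DMSO 2 (7), and 0 to 2 in dTAG47 against AGB1, with 1 without dTAG47 1 and 2 without AGB1 1. The cause was not tested. The call of MYC in AGB1 also ended with library sizes alone (edgeR adjusted p = 0.0545) and with the replicate block (0.0785); over all alternatives its adjusted p lay between 0.000804 and 0.294.

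The labels do not say that a replicate number marks a shared culture or day, so the numbers were not taken as pairs. Same-numbered libraries had correlations of −0.156 to 0.0715 of their deviations from group means, and differently numbered ones −0.251 to 0.265. These values may also carry the GC lean of the libraries, so they cannot show whether the numbers mark pairs. With the replicate block 10 genes were called in dTAG47 and 17 in AGB1 against DMSO, and 0 in dTAG47 against AGB1. With 3 libraries a group, the 95% interval of HMGA1 in dTAG47 against DMSO still held a difference of −11.7%, and that of LIN28B in AGB1 against DMSO one of 20.4%.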
